A study of Mus musculus with 55 samples.

Results

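Npas4 and its DNA-binding partners Arnt and Arnt2 were followed by name through 2 RNA-seq experiments on primary mouse neurons, 3 genes of 29680 with a gene symbol in the count tables. The genes were chosen by name, for the complex they form. Each gene was represented by its RefSeq transcript with the most counts, and all 3 passed the filter on low counts in both experiments. The neurons came from cortex and hippocampus of CD1 mouse embryos of mixed sex, and RNA 3′ ends were sequenced by CEL-Seq2. The study asked how activity-dependent transcription differs between immature and mature cultures, and between ways of activating mature cultures.

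The maturation experiment had 28 samples. Cultures at 7 days in vitro (7DIV) and at the stage the study calls 21DIV, whose labels here read 23 days, were left unstimulated (basal), depolarized with 55 mM KCl, or treated with 50 μM bicuculline (Bic), a GABA-A receptor blocker, together with 2.5 mM 4-aminopyridine (4AP), a potassium channel blocker. Stimuli lasted 15 or 180 min. Each group held 3 samples, except Bic + 4AP at 21DIV, with 2 samples at each time. The stimuli experiment had 27 samples, all 21DIV, given 55 mM KCl or 50 μM Bic without 4AP for 15, 45 or 180 min, with 2 samples per group beside 3 basal samples. In the third arm, cultures were silenced for 48 h with 1 μM tetrodotoxin (TTX), a sodium channel blocker. They were collected in TTX (basal TTX, 4 samples) or 15, 45 or 180 min after TTX was washed out (TTXw, 3, 2 and 3 samples). KCl and Bic were added to cultures that had not been silenced. No genetic change is named for any sample, and nothing in the labels says whether replicates of a group came from separate litters, so the p-values measure the spread between these samples only.

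NPAS4 is a transcription factor of the bHLH-PAS class, made in neurons when calcium enters the cell, and its gene is an immediate early gene that needs no new protein for its induction. The protein binds DNA only as a dimer with ARNT or ARNT2. ARNT is present in most cell types and also pairs with the hypoxia factors and the dioxin receptor, while ARNT2 is prominent in neurons. In excitatory neurons NPAS4 is known for controlling genes of inhibitory synapses, Bdnf among them.

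By RefSeq's annotation of mouse build GRCm38.p6 (mm10), Npas4 lies on the minus strand at chr19:4984353-5003439, Arnt on the plus strand at chr3:95434367-95497240, and Arnt2 on the minus strand at chr7:84246274-84411741. GENCODE places a gene model of unsettled type on the same strand inside the Npas4 span (chr19:4991357-4993113), a processed pseudogene, Gm42672, inside Arnt, and the antisense gene Gm30873 and the small nuclear RNA gene Gm25790 inside Arnt2. The start regions of the 3 genes are printed below because the gene that responds to activity and its partners can then be read side by side. Each runs from 250 bases before to 50 bases after a RefSeq start site, 5′ to 3′ on the gene's own strand. The sequence table gives 1 start site per gene and does not name its transcript. This site lies 13468 bases inside the outer end of the span for Npas4, 23 for Arnt and 1703 for Arnt2. The windows are chr19:4989922-4990221 for Npas4, chr3:95434140-95434439 for Arnt and chr7:84409989-84410288 for Arnt2. Capitals mark the short cyclic AMP response element (CRE) motif TGACG or its reverse complement CGTCA.
Npas4: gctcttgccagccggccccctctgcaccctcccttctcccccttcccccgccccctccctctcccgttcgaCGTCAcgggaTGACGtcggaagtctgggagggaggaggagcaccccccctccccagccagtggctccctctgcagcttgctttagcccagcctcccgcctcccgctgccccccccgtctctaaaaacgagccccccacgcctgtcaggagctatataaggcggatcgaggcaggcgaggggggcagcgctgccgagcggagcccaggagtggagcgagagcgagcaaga
Arnt: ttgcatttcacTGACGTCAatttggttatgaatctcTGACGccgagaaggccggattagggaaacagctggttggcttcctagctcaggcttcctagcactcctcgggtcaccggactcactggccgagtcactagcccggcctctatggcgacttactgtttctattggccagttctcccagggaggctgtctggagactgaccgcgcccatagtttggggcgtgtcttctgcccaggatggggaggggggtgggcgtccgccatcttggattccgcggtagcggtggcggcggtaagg
Arnt2: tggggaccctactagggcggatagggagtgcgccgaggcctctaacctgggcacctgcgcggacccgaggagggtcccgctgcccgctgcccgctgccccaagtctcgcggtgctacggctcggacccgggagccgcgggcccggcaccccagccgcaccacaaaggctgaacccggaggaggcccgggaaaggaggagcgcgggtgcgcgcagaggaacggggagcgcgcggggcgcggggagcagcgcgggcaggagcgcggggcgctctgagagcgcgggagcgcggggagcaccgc
Npas4 held 2 short CRE motifs, CGTCA at -179 and TGACG at -169 from the start site, and no complete CRE (TGACGTCA). Arnt held a complete CRE at -239, which contains the short motif on each strand, and a further TGACG at -214. Arnt2 held none. The short motif occurred on either strand in 21.0% of 27025 RefSeq promoters of the same length and the complete CRE in 1.88%. None of the 3 windows held the NPAS4 core TCGTG or CACGA (16.3% of promoters), the hypoxia core ACGTG or CACGT (19.7%) or a CArG box, the element that SRF binds (1.57%). A match in these letters is a description of the window and no measurement of binding.

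In the maturation experiment a 7DIV library held 1659263 to 4473908 counts assigned to genes (15 libraries, median 2867181) and a 21DIV library 1783609 to 14008626 (13 libraries, median 5086818). Libraries of the stimuli experiment held 1176887 to 3907601 (27 libraries, median 2383101). All values below are CPM, gene counts relative to the library total, scaled by the trimmed mean of M values, and a gene was called when edgeR's quasi-likelihood test gave a Benjamini-Hochberg adjusted p under 0.05 over all genes tested and the change reached 1.5-fold. Differences between responses were called on the adjusted p alone. All 8 neuronal markers passed the filter in both experiments. Glial RNA was present too: the 8 astrocyte markers summed to between 506 and 764 CPM in basal 7DIV samples, 4380 to 5550 CPM in basal 21DIV samples of the same experiment, 2450 to 2990 CPM in basal samples of the stimuli experiment and 6980 to 8120 CPM in basal TTX samples. In these bulk samples, fewer cells of a type and less RNA per cell cannot be told apart. None of the 4 endothelial markers passed the filter.

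Npas4 was lower in unstimulated mature cultures than in unstimulated immature ones. In basal samples it measured 287, 473 and 443 CPM at 7DIV and 106, 63.3 and 177 CPM at 21DIV. The groups did not overlap, with every 21DIV sample below every 7DIV sample. The 21DIV level was 0.295 times the 7DIV level (log2 fold change -1.76, SE 0.29, adjusted p = 0.00029), in a comparison where 33.1% of 10506 genes were called. Neither partner was called between stages at rest. Arnt2 measured 183, 197 and 167 CPM at 7DIV and 193, 227 and 208 CPM at 21DIV, ranges that overlapped (log2 fold change 0.23, SE 0.13, adjusted p = 0.193). Arnt was near the lower limit of what these libraries resolve, with 8, 8 and 36 counts at 7DIV and 31, 47 and 44 counts at 21DIV (log2 fold change -0.04, SE 0.44, adjusted p = 0.952). The rise of the astrocyte markers from 7DIV to 21DIV ran alongside the lower Npas4 level, and its part in that level was not tested.

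At 7DIV, of the 4 stimulated groups, Npas4 rose with KCl at 180 min. It measured 969, 1997 and 1656 CPM there, against 287 to 473 CPM in basal samples, so the groups did not overlap (log2 fold change 1.94, SE 0.31, 3.84-fold, adjusted p = 0.000296). In this comparison 1.98% of 11742 genes were called. After 15 min of KCl the level was 363, 413 and 411 CPM, within the basal range (log2 fold change -0.02, SE 0.30). Bic + 4AP gave 433, 508 and 450 CPM at 15 min and 557, 663 and 466.2 CPM at 180 min. The 15 min group overlapped the basal samples and the 180 min group overlapped them through its lowest sample, and neither was called (log2 fold changes 0.21 and 0.49, SE 0.30 each, adjusted p = 0.944 and 0.874). In these last 3 comparisons edgeR called 0.0% of genes. At an unadjusted p under 0.05 it gave 659 genes for KCl at 15 min, 793 for Bic + 4AP at 15 min and 701 for Bic + 4AP at 180 min, and DESeq2 called 3, 3 and 0 genes.

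At 21DIV, Npas4 rose in all 4 stimulated groups. KCl gave 265, 311 and 165 CPM at 15 min and 400, 1045 and 983 CPM at 180 min, and Bic + 4AP gave 383 and 461 CPM at 15 min and 2260 and 2348 CPM at 180 min. Only the KCl 15 min group overlapped the basal range of 63.3 to 177 CPM, by its lowest sample. The 180 min groups changed most, 6.96-fold with KCl (log2 fold change 2.80, SE 0.31, adjusted p = 1.41e-06) and 19.8-fold with Bic + 4AP (log2 fold change 4.31, SE 0.35, adjusted p = 1.42e-09), where 4.88% and 14.2% of 11742 genes were called. By p-value Npas4 ranked 3 of 11742 genes for Bic + 4AP at 180 min and 7 for KCl at 180 min. At 15 min it rose 2.12-fold with KCl (log2 fold change 1.09, SE 0.30, adjusted p = 0.0219) and 3.63-fold with Bic + 4AP (log2 fold change 1.86, SE 0.33, adjusted p = 0.0108). KCl at 15 min called 6.21% of genes, while Bic + 4AP at 15 min called 0.0511%, which was 6 genes, all higher, Npas4 and the AP-1 subunit Junb among them. Markers of other cells differed in the group with the highest Npas4 level. With Bic + 4AP at 180 min, astrocyte markers summed to 1650 to 3130 CPM against 4380 to 5550 CPM in basal samples, oligodendrocyte lineage markers to 996 to 1600 CPM against 2360 to 3110 CPM, and neuronal markers to 4430 to 4680 CPM against 5120 to 6050 CPM. The 6 microglial markers went the other way, from a sum of 4.29 to 8.47 CPM in basal samples to 19.5 to 20.6 CPM, with 2 of them at 0 in this group. The part of these markers in the Npas4 change was not tested.

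Both 15 min calls at 21DIV depended on single libraries. The KCl call was lost without KCl replicate 1 (log2 fold change 1.05, adjusted p = 0.0655), KCl replicate 2 (0.89, adjusted p = 0.11), basal replicate 1 (1.02, adjusted p = 0.0516) or basal replicate 2 (0.79, adjusted p = 0.187). The Bic + 4AP call was lost without its replicate 1 (1.98, adjusted p = 0.0644) or replicate 2 (1.73, adjusted p = 0.152), and without basal replicate 1 (1.80, adjusted p = 0.101) or replicate 2 (1.57, adjusted p = 0.144). The direction was the same in all of these fits.

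**Figure D1:**
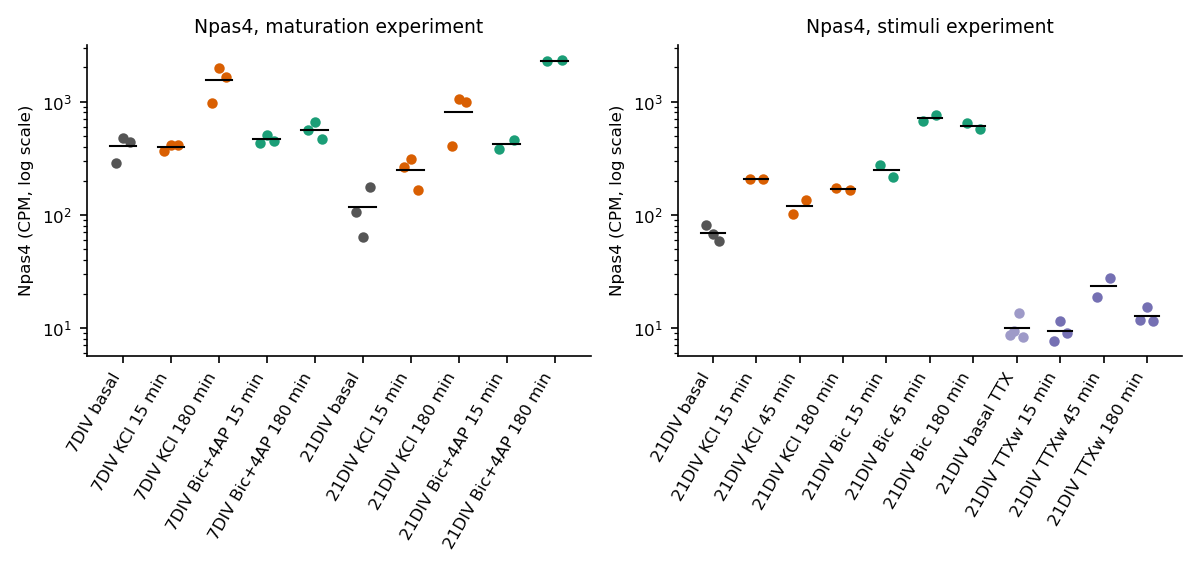
Npas4 level in each sample of the maturation experiment (left) and the stimuli experiment (right), in CPM on a log scale. Points are samples, black lines are group means, and colours mark basal (grey), KCl (orange), Bic with or without 4AP (green), basal TTX (light purple) and TTXw (purple); the highest group is 21DIV Bic + 4AP at 180 min, with 2260 and 2348 CPM, and the TTX samples lie between 7.56 and 27.4 CPM.

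The response of Npas4 to Bic + 4AP at 180 min was larger at 21DIV than at 7DIV by 3.82 on the log2 scale (SE 0.45, adjusted p = 5.4e-06), a 14.1-fold difference between the responses. A difference between stages was called for 4.94% of 11742 genes in this comparison, and Npas4 ranked 4 by p-value. For the other 3 stimulated groups the difference between stages was not called: it was 0.86 for KCl at 180 min (SE 0.42, adjusted p = 0.348), 1.11 for KCl at 15 min (SE 0.42, adjusted p = 0.184) and 1.65 for Bic + 4AP at 15 min (SE 0.45, adjusted p = 0.745). These comparisons called 0.775%, 2.01% and 0.00852% of genes, the last being Junb alone. All 3 differences pointed the same way, toward a larger response at 21DIV. Of 7 alternative analyses, each difference was called in 1, the one with no filter on low counts, with adjusted p of 0.000758, 1.34e-06 and 8.67e-13. No fit that left out a replicate called any of them.

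The larger fold at 21DIV started from a lower basal level, and the levels reached depended on the stimulus. With KCl at 180 min, the highest 21DIV sample (1045 CPM) was above the lowest 7DIV sample (969 CPM), and the group means were 810 CPM at 21DIV and 1541 CPM at 7DIV. With Bic + 4AP at 180 min, both 21DIV samples exceeded all 3 at 7DIV, which lay between 466.2 and 663 CPM. In order of group mean, 21DIV Bic + 4AP at 180 min stood first, with no overlap with the group below it, 7DIV KCl at 180 min. From 7DIV KCl at 180 min down to 7DIV KCl at 15 min, each group overlapped the next. 21DIV KCl at 15 min and 21DIV basal had the lowest means, 247 and 115.5 CPM.

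Within the stimuli experiment, Npas4 rose at every time after KCl and after Bic without 4AP, with different courses. Basal samples measured 81.4, 67.4 and 58.02 CPM. KCl gave 205 and 208 CPM at 15 min, 101 and 136 CPM at 45 min and 171 and 165 CPM at 180 min. Bic gave 275 and 217 CPM at 15 min, 668 and 766 CPM at 45 min and 647 and 567 CPM at 180 min. No stimulated sample overlapped the basal samples. Npas4 was highest at 15 min with KCl and at 45 min with Bic. Astrocyte markers summed to between 2930 and 5600 CPM in these stimulated samples and to between 2450 and 2990 CPM in basal samples, and their part in the changes was not tested.

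Relative to basal, KCl changed Npas4 2.98-fold at 15 min (log2 fold change 1.57, SE 0.15, adjusted p = 1.18e-09), 1.70-fold at 45 min (0.77, SE 0.16, adjusted p = 0.00842) and 2.43-fold at 180 min (1.28, SE 0.16, adjusted p = 2.22e-06). The share of 12023 genes called was 7.23% at 15 min and 0.765% at each later time. Bic changed it 3.58-fold at 15 min (log2 fold change 1.84, SE 0.15, adjusted p = 7.3e-11), 10.3-fold at 45 min (3.37, SE 0.15, adjusted p = 9.12e-20) and 8.75-fold at 180 min (3.13, SE 0.15, adjusted p = 2.09e-18), where 3.42%, 7.45% and 0.765% of genes were called. Npas4 had the smallest p of all 12023 genes for Bic at 180 min and the next to smallest for Bic at 45 min. The KCl call at 45 min was lost without KCl replicate 2 (log2 fold change 0.57, adjusted p = 0.272) or basal replicate 5 (0.66, adjusted p = 0.0944), with counts summed over transcripts (0.79, adjusted p = 0.0851) and with counts thinned to the smallest library (0.71, adjusted p = 0.0564).

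KCl and Bic did not differ past the threshold at 15 min and differed at both later times. Bic against KCl was 0.27 at 15 min on the log2 scale (SE 0.16, adjusted p = 1.0), a time at which edgeR called 0.0% of 12023 genes, 552 had an unadjusted p under 0.05 and DESeq2 called 1. At 45 min Npas4 was 6.08-fold higher with Bic (log2 2.60, SE 0.17, adjusted p = 3.08e-14) and at 180 min 3.61-fold higher (log2 1.85, SE 0.17, adjusted p = 6.78e-10), in comparisons that called 0.682% and 0.732% of genes. Within KCl, the level at 45 min was below that at 15 min (log2 fold change -0.81, SE 0.17, adjusted p = 0.0107, 0.416% of genes called), and the step from 45 to 180 min was not called (0.51, SE 0.17, adjusted p = 0.288, 0.141% called). Within Bic, the level rose from 15 to 45 min (1.53, SE 0.16, adjusted p = 8.65e-08, 0.141% called) and was not called from 45 to 180 min (-0.24, SE 0.15, adjusted p = 0.442, 3.04% called). The KCl step from 15 to 45 min was no longer called without 15 min replicate 1 (-0.83, adjusted p = 0.0534) or 2 (-0.81, adjusted p = 0.142) or without 45 min replicate 1 (-0.62, adjusted p = 0.564), and with counts summed over transcripts (-0.82, adjusted p = 0.216). These comparisons share samples with each other and with those against basal.

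Npas4 was lower after 48 h of TTX silencing than in basal samples of the same experiment. In TTX it measured 8.65, 9.30, 13.6 and 8.32 CPM, from 13, 16, 19 and 23 counts, against 58.02 to 81.4 CPM in basal samples. The groups were far apart, and the TTX level was 0.14 times the basal level (log2 fold change -2.83, SE 0.19, adjusted p = 7.82e-15). In this comparison 21.6% of 12023 genes were called.

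After TTX was removed, Npas4 rose at 45 min and stayed below the level of cultures that had never been silenced. It measured 7.56, 11.5 and 9.01 CPM at 15 min, 18.9 and 27.4 CPM at 45 min and 11.8, 15.1 and 11.4 CPM at 180 min. Both 45 min samples were above every other TTX sample, while the 15 and 180 min samples overlapped those still in TTX. Against basal TTX the change was -0.10 at 15 min (log2 scale, SE 0.28, adjusted p = 0.988), 1.27 at 45 min (SE 0.26, 2.41-fold, adjusted p = 0.00732) and 0.43 at 180 min (SE 0.27, adjusted p = 0.282). Of 12023 genes, 0.0%, 0.383% and 14.0% were called. At 15 min 758 genes had an unadjusted p under 0.05 and DESeq2 called 0.

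The 45 min rise ended by 180 min, with 45 min above 15 min (log2 fold change 1.37, SE 0.28, adjusted p = 0.00863, 0.266% of genes called) and 180 min below 45 min (-0.84, SE 0.26, adjusted p = 0.0243, 12.3% called). The call at 45 min was lost in the fit on its own groups (log2 fold change 1.25, adjusted p = 0.0554), without TTXw 45 min replicate 3 (0.96, adjusted p = 0.202) and without basal TTX replicate 4 (1.16, adjusted p = 0.0687). Both steps in time were lost in further analyses. The first was lost with thinned counts (1.15, adjusted p = 0.0857) and without 15 min replicate 1 (1.20, adjusted p = 0.12) or 45 min replicate 3 (1.06, adjusted p = 0.152), and the second with the compared groups only (-0.85, adjusted p = 0.0884) and without 180 min replicate 1 (-0.78, adjusted p = 0.0644) or 3 (-0.77, adjusted p = 0.0647) or 45 min replicate 3 (-0.53, adjusted p = 0.362). The highest TTXw sample, 27.4 CPM, was below the lowest basal sample, 58.02 CPM. At 45 min the relative rise was 2.41-fold in this arm and 1.70-fold with KCl, a difference that was not called (log2 0.50, SE 0.30, adjusted p = 0.721, 0.233% of genes called).

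The TTXw response was smaller than the Bic response at each time. The difference was -1.94 at 15 min (SE 0.32, adjusted p = 0.000604), -2.10 at 45 min (SE 0.30, adjusted p = 0.000137) and -2.70 at 180 min (SE 0.31, adjusted p = 1.33e-07) on the log2 scale, where 2.0%, 1.81% and 9.8% of genes were called. Against KCl it was smaller at 15 min (-1.68, SE 0.32, adjusted p = 0.0015, 4.08% called) and not called at 180 min (-0.85, SE 0.31, adjusted p = 0.0874, 8.33% called), although it was called without basal replicate 1 (-1.0, adjusted p = 0.0456) and with counts summed over transcripts (-0.96, adjusted p = 0.045).

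Markers of astrocytes and of the oligodendrocyte lineage moved with TTX. All 8 astrocyte markers were higher in basal TTX than in basal samples, and in the 180 min TTXw samples their sum reached 10400 to 14800 CPM while the neuronal markers summed to 2670 to 3200 CPM, against 4480 to 4970 CPM in basal TTX. The 8 oligodendrocyte lineage markers summed to 728 to 1160 CPM in basal samples, 2050 to 2120 CPM in basal TTX and 2930 to 3640 CPM at 180 min of TTXw. The log2 ratio of Xist to Y-linked counts, a mark of the sex mix of the pooled embryos, was 1.29 to 2.21 in the 12 samples of the TTX arm and 0.45 to 1.23 in the other 15. The part of these differences in the Npas4, Arnt and Arnt2 values was not tested.

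The DNA-binding partners were not called in the groups where Npas4 rose. Npas4 was called in 12 of 17 comparisons of a stimulated group with its unstimulated group, while Arnt and Arnt2 were called in 0 of 17 by edgeR and by DESeq2. Over all genes edgeR called between 0.0% and 14.2% in these comparisons, so 0 calls for a gene is near the share of all genes. At an unadjusted p under 0.05, 1 of the 17 comparisons was reached by Arnt and 4 by Arnt2. Each comparison held between 622 and 3759 such genes, of 11742 or 12023 tested. Over the 17 comparisons the log2 fold change of Npas4 had a median of 1.28 and reached 4.31, that of Arnt2 lay between -0.42 and 0.28 (median 0.04), and that of Arnt between -0.49 and 1.30 (median 0.23).

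**Figure D2:**
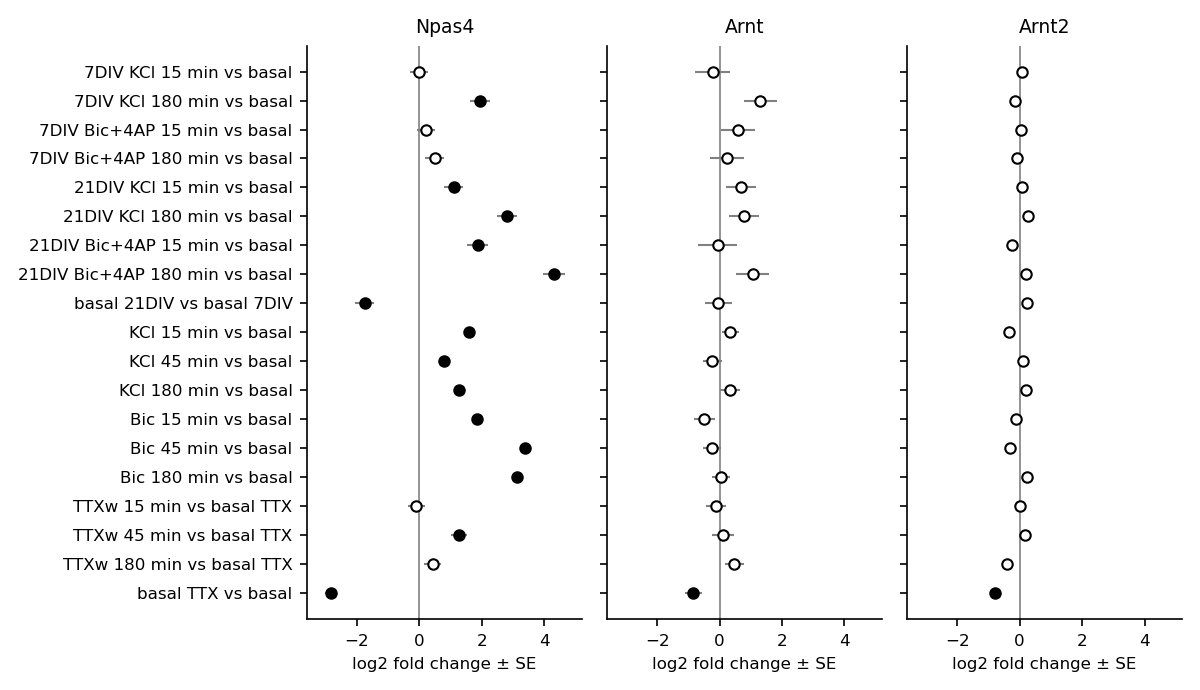
Change of Npas4, Arnt and Arnt2 in each stimulated group against its unstimulated group, with the comparisons of stage at rest and of TTX at rest. The x axis is the log2 fold change, bars are standard errors, and filled points passed the threshold; Npas4 is filled in 14 of 19 comparisons, and Arnt and Arnt2 each in the comparison of basal TTX with basal.

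In the maturation experiment Arnt2 lay between 133.1 and 259 CPM over all 28 samples, and the highest group mean was 1.56 times the lowest, against 3.07 times for Arnt and 19.9 times for Npas4. In the stimuli experiment, with the TTX groups included, the same ratio was 2.75 for Arnt2, 2.51 for Arnt and 76.7 for Npas4. At 180 min it measured 259, 259 and 245 CPM with KCl and 245 and 235 CPM with Bic + 4AP at 21DIV, all above the basal samples of 193 to 227 CPM, but neither change was called (log2 fold changes 0.28 and 0.20, SE 0.12 and 0.13). In the stimuli experiment, KCl gave 152 and 158 CPM at 15 min, 207 and 222 CPM at 45 min and 214 and 240 CPM at 180 min, and Bic gave 186 and 176 CPM, 152 and 166 CPM and 245 and 221 CPM. The basal samples measured 197, 183 and 214 CPM. KCl at 15 min and Bic at 45 min lay below all basal samples without reaching the threshold (log2 fold changes -0.35 and -0.32, SE 0.14 each, adjusted p = 0.125 and 0.178). These were also the times at which each stimulus called the most genes.

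Arnt2 was lower in basal TTX than in basal samples. It measured 123, 105, 111.6 and 116.1 CPM in basal TTX, below every basal sample, at 0.575 times the basal level (log2 fold change -0.80, SE 0.12, adjusted p = 2.24e-06). In this comparison 21.6% of all genes were called, and the TTX arm also differed in the glial markers and the Xist ratio given above. The 15 min and 45 min TTXw samples, at 125.1, 99.9 and 118 CPM and at 120 and 136 CPM, overlapped basal TTX. At 180 min it fell further in value, to 105, 88.0 and 59.98 CPM, a change with an adjusted p of 0.0237 that stayed under 1.5-fold (log2 fold change -0.42, SE 0.14). From 45 to 180 min of TTXw the fall was called (-0.59, SE 0.16, adjusted p = 0.00741). The 180 min response also differed from that to Bic (-0.65, SE 0.19, adjusted p = 0.0261) and to KCl (-0.62, SE 0.20, adjusted p = 0.0424), calls that rested on single libraries. The difference from Bic was lost without Bic replicate 2 (-0.61, adjusted p = 0.103) or TTXw replicate 3 (-0.47, adjusted p = 0.0988). The difference from KCl was lost in 5 of 7 alternative analyses, and without either KCl sample, TTXw replicate 2 or 3, basal replicate 1 or 2, or basal TTX replicate 1, 3 or 4, at adjusted p between 0.0557 and 0.195. The change from basal TTX was called without TTXw replicate 1 (-0.59, adjusted p = 0.00355). The 180 min TTXw samples are those with the lowest sum of neuronal markers in the experiment.

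Arnt was measured from 4 to 89 counts per sample in the maturation experiment and from 7 to 76 in the stimuli experiment, so small changes were not detectable at this depth. Its highest group mean in the maturation experiment was 7DIV KCl at 180 min, with 19.7, 16.6 and 12.2 CPM against 3.79, 4.91 and 9.75 CPM in basal samples. The groups did not overlap, and the change had an unadjusted p of 0.0201 and an adjusted p of 0.274 (log2 fold change 1.30, SE 0.53). A single 21DIV KCl sample at 15 min measured 21.2 CPM while the other 2 measured 4.36 and 5.70 CPM. In the stimuli experiment, in the comparison that called 21.6% of all genes, Arnt was lower in basal TTX. It measured 14.1, 20.9 and 23.5 CPM in basal samples and 4.66, 13.4, 11.5 and 12.3 CPM in basal TTX (log2 fold change -0.84, SE 0.28, adjusted p = 0.0184). This call was lost with thinned counts (log2 fold change -0.68, adjusted p = 0.146), without basal replicate 2 (-0.77, adjusted p = 0.0651) or 5 (-0.69, adjusted p = 0.102) and without basal TTX replicate 1 (-0.63, adjusted p = 0.0857).

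**Figure D3:**
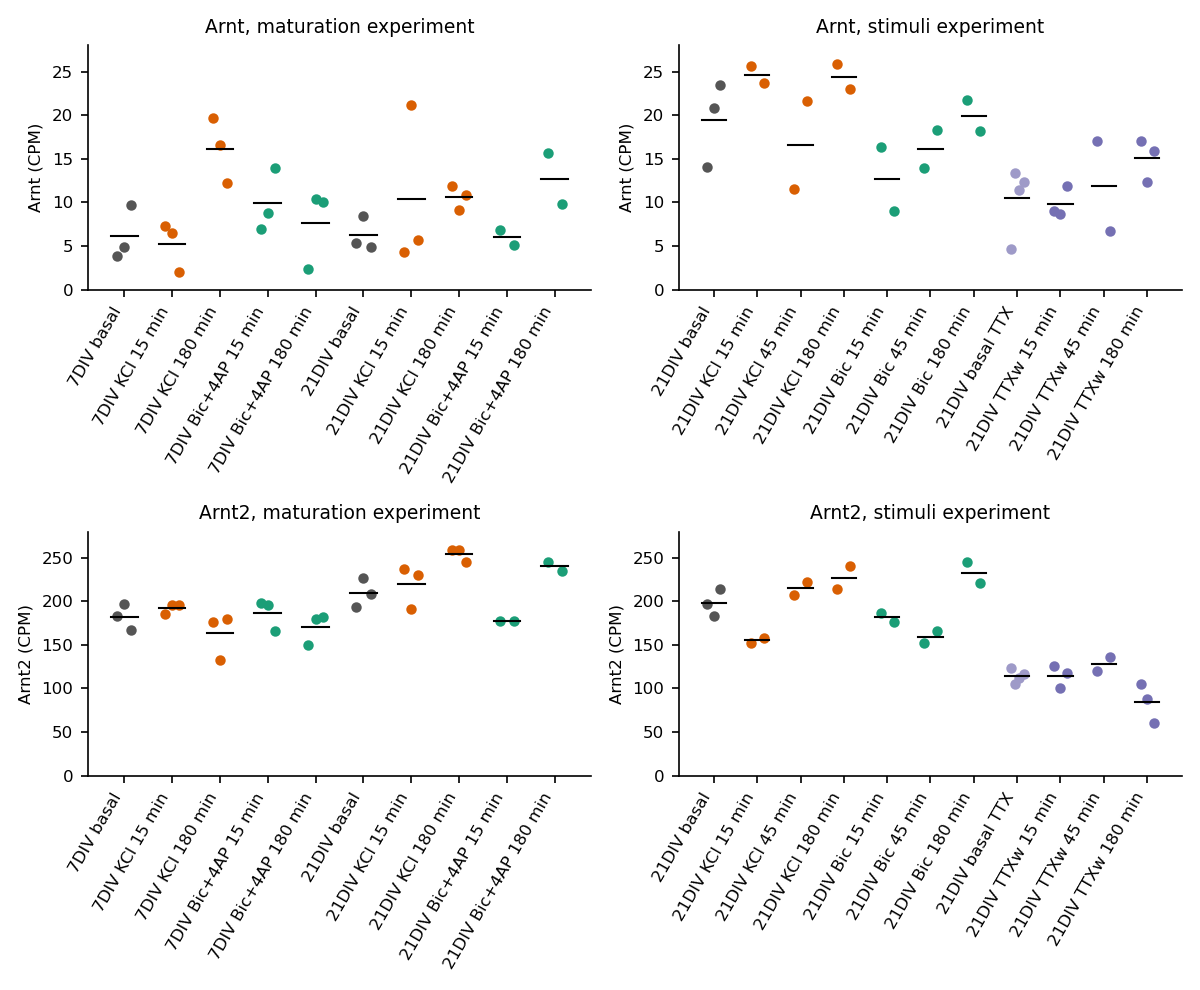
Arnt (top) and Arnt2 (bottom) in each sample of the maturation experiment (left) and the stimuli experiment (right), in CPM on linear axes that start at 0. Points are samples and black lines are group means; Arnt2 lies between 59.98 and 105 CPM at 180 min of TTXw and above 130 CPM in every sample never exposed to TTX.

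The ratio of Npas4 to Arnt2 counts was also taken within each sample. The libraries tag 3′ ends, so counts do not scale with transcript length, but how well each 3′ end is captured was not measured, and the ratio is read here only between groups. It was 2.21 ± 0.563 at 7DIV basal and 0.560 ± 0.287 at 21DIV basal (SD, n = 3 each). It reached 9.90 ± 4.79 with KCl at 180 min at 7DIV (SD, n = 3) and 9.61 ± 0.541 with Bic + 4AP at 180 min at 21DIV (SD, n = 2), values that overlapped. In the stimuli experiment it was 0.351 ± 0.0727 in basal samples (SD, n = 3), 4.51 ± 0.173 with Bic at 45 min (SD, n = 2) and 0.088 ± 0.024 in basal TTX (SD, n = 4). The ratios of the separately prepared experiments were not compared by a test.

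The genes whose group means were most like those of Npas4 were ranked by the lower of their Pearson correlations over the 10 groups of the maturation experiment and the 11 groups of the stimuli experiment, on log2 CPM, among 8430 genes with an average log2 CPM of at least 3. The groups of an experiment share their normalization and the stage and TTX differences, so the values are descriptions. Dusp1, a phosphatase that switches off MAP kinases, stood first (r = 0.91 and 0.95), followed by the AP-1 subunits Fosb (0.94 and 0.90) and Junb (0.90 and 0.86), the heat shock co-chaperone Dnajb1 (0.85 and 0.91) and Wdfy1 (0.85 and 0.85). For 99% of genes the lower correlation was at most 0.65. None of the 5 was called at 7DIV after 15 min of KCl or after Bic + 4AP at either time. In those groups edgeR called 0.0% of all genes, so their calls cannot show a likeness. With KCl at 180 min at 7DIV, where 1.98% of all genes were called, Fosb (log2 fold change 2.18, SE 0.35) and Junb (2.63, SE 0.23) rose. Dusp1 (0.66, SE 0.30), Dnajb1 (0.59, SE 0.20) and Wdfy1 (0.43, SE 0.17) were not called there.

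These genes also differed from Npas4 in places. After TTXw for 45 min, Fosb rose by 3.58 (SE 0.29), Dusp1 by 2.19 (SE 0.25) and Junb by 2.12 (SE 0.25) on the log2 scale, beside 1.27 for Npas4. Dnajb1 (0.34, SE 0.15) and Wdfy1 (-0.22, SE 0.13) were not called there. Fosb was still higher at 180 min of TTXw (1.92, SE 0.34, adjusted p = 4.72e-05), where Npas4 was not called. Dusp1 after KCl in the stimuli experiment rose at 15 min (0.65, SE 0.19, adjusted p = 0.0196) and measured -0.06 (SE 0.20) at 45 min, while Npas4 was called at both times. In basal TTX, where 21.6% of all genes were called, Dusp1 fell (log2 fold change -2.41, SE 0.22), as did Fosb (-1.88, SE 0.31) and Junb (-0.89, SE 0.25), beside -2.83 for Npas4. The TTX groups were among those used to pick these genes, so a shared fall is partly built into the choice. Differences between genes were not tested.

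**Figure D4:**
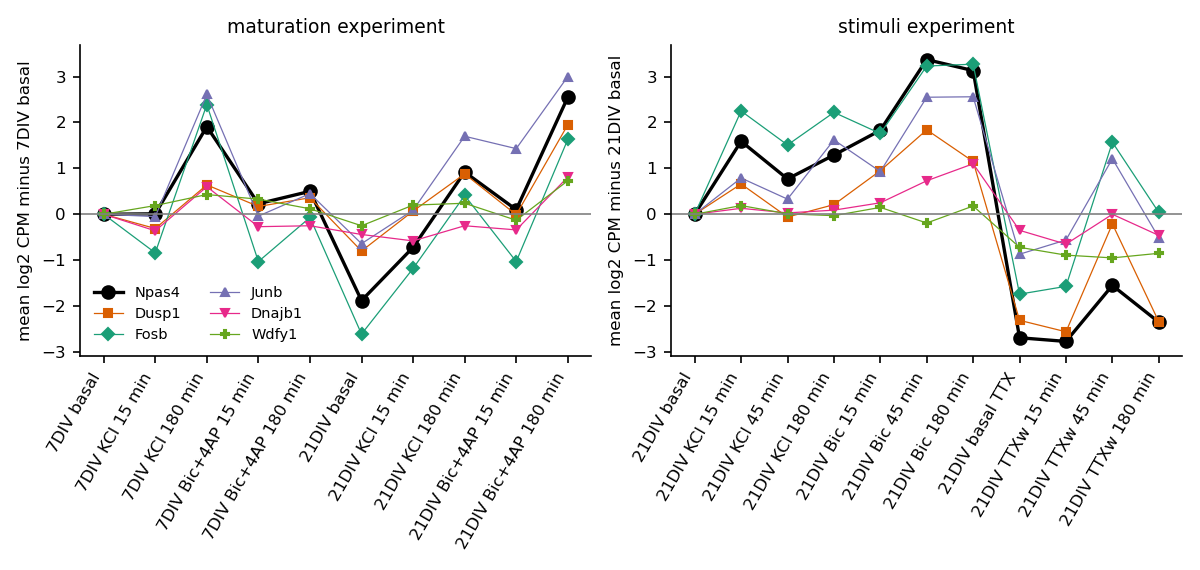
Npas4 (thick black line) and the 5 genes with group means most like it, as the mean log2 CPM of each group minus that of the basal group named on the y axis. The x axis gives the groups of the maturation experiment (left) and the stimuli experiment (right). All 6 genes passed the threshold for 21DIV Bic + 4AP at 180 min, where 14.2% of all genes were called. That group was among those used to pick the 5. After 45 min of TTXw the other 5 genes stand above Npas4 as measured from basal, Fosb and Junb highest. Against basal TTX, the log2 fold changes of Dnajb1 (0.34) and Wdfy1 (-0.22) were below that of Npas4 (1.27) and were not called.

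For Arnt, the genes most like it were Atp7a, a copper transporter (r = 0.85 and 0.84), Rasgef1b, an exchange factor of small GTPases (0.83 and 0.81), and Rab1a, a GTPase of transport from the endoplasmic reticulum (0.86 and 0.81). For Arnt2 they were Fam210b (0.93 and 0.94), Tpd52 (0.90 and 0.94) and Cntnap4, a cell adhesion protein of the neurexin superfamily (0.91 and 0.90). Of these 6, Atp7a, Rasgef1b, Tpd52 and Cntnap4 were lower in basal TTX by the same threshold as Arnt and Arnt2, with log2 fold changes of -0.88 (SE 0.27), -0.87 (SE 0.19), -1.16 (SE 0.12) and -1.11 (SE 0.22). In this comparison 21.6% of all genes were called. The TTX groups were among those used to pick the 6 genes, so a fall in TTX is partly built into the choice. Tpd52 rose at 21DIV with KCl at 180 min (log2 fold change 0.78, SE 0.16, adjusted p = 0.00255), where Arnt2 measured 0.28.

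Upstream of Npas4, 8 genes were followed that encode transcription factors and calcium channels known to act upstream of it, and all 8 were tested in both experiments. The most often called was Srf, which encodes serum response factor, in 6 of 17 stimulated groups and in both directions. It rose with KCl at 180 min at 7DIV, from between 89.6 and 104 CPM to between 258 and 340 CPM (log2 fold change 1.66, SE 0.27). In the stimuli experiment it rose with KCl at 15 min (1.00, SE 0.19) and Bic at 15 and 45 min (0.93, SE 0.20, and 0.96, SE 0.19). In each of these groups Srf was 1 of the 8 called, beside 1.98%, 7.23%, 3.42% and 7.45% of all genes in that order. Srf fell at 21DIV with KCl at 15 min (-0.92, SE 0.26), again 1 of the 8, beside 6.21% of all genes. It also fell with Bic + 4AP at 180 min (-1.11, SE 0.30), the group in which Npas4 was highest. In that last group Creb1 (-0.81, SE 0.21), its coactivator Crtc1 (-1.11, SE 0.32) and Mef2a (-0.92, SE 0.27) also fell. These were 4 of the 8, beside 14.2% of all genes called, and the list had a median of -0.74 beside -0.02 for all genes. Mef2c fell at 180 min of TTXw (-0.73, SE 0.12), 1 of the 8 beside 14.0% of all genes. The calcium channel genes Cacna1c and Cacna1d and Mef2d were called in none of the 17. In basal TTX, where Npas4 was lower, Crtc1 and Srf were called and were higher. These were 2 of the 8 beside 21.6% of all genes, and the list had a median of 0.27 beside 0.00 for all genes.

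Other bHLH-PAS genes and their coactivators made a list of 16, of which 12 passed the filter in each experiment. Between stages at rest 3 of 10 tested were called, all higher, a share close to the 33.1% of all genes called there. They were Epas1, which encodes HIF-2α (log2 fold change 2.68, SE 0.27), Npas2 of the circadian system (1.74, SE 0.42) and Npas3 (1.52, SE 0.15), and the list's median was 0.30 beside 0.01 for all genes. In basal TTX, where 21.6% of all genes were called, Epas1 (0.87, SE 0.16) and Npas3 (0.94, SE 0.14) were higher and Npas2 (-0.59, SE 0.17) lower, 3 of 12 tested. Epas1 and Npas3 moved with the astrocyte marker sum in both comparisons, and the part of that sum in their values was not tested. In the stimuli experiment Npas2 and Npas3 rose with KCl at 15 min (0.90, SE 0.17, and 0.69, SE 0.16), with Bic at 15 min (0.91, SE 0.18, and 0.64, SE 0.17) and with Bic at 45 min (0.68, SE 0.18, and 0.80, SE 0.16). Epas1 rose with KCl and with Bic at 15 min (0.93, SE 0.18, and 0.73, SE 0.19). Each of these 3 groups called 3 of 12 tested, beside 7.23% (KCl 15 min), 3.42% (Bic 15 min) and 7.45% (Bic 45 min) of all genes. The astrocyte marker sum was higher in these 3 groups too, at 4290 to 5600 CPM against 2450 to 2990 CPM in basal samples. Its part in these changes was not tested. Single calls of 12 were Npas3, higher with KCl at 45 min (0.765% of all genes called), and Epas1, higher at 180 min of TTXw (14.0%). In the maturation experiment Ncoa1 was lower at 21DIV with KCl at 15 min (6.21%). Arntl, a further ARNT family gene known from the clock, rose with Bic at 45 min (0.72, SE 0.22) and fell at 21DIV with Bic + 4AP at 180 min (-1.24, SE 0.25), where Epas1 (-1.26, SE 0.26) and the coactivator Ncoa1 (-0.84, SE 0.22) fell too. These were 3 of 12 tested, beside 14.2% of all genes, and the list had a median of -0.89 beside -0.02 for all genes. In that group the astrocyte marker sum was lower, at 1650 to 3130 CPM against 4380 to 5550 CPM in basal samples, and its part was not tested.

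Of 19 genes for subunits of the NuA4/TIP60 acetyltransferase complex, a cofactor reported to associate with NPAS4, 18 were tested. In 15 of the 17 stimulated groups none was called by edgeR or DESeq2, and 28 of the tests in those groups had an unadjusted p under 0.05. Over all genes edgeR called between 0.0% and 7.45% in those groups. With Bic + 4AP at 180 min at 21DIV, Morf4l1 rose (log2 fold change 1.03, SE 0.28) and Yeats4 fell (-0.80, SE 0.17), and at 180 min of TTXw Actl6a (1.35, SE 0.26) and the scaffold gene Trrap (0.85, SE 0.22) rose. These were 2 of 18 in each group, a share below the 14.2% and 14.0% of all genes called. Between stages at rest 4 of 18 were called, a share below the 33.1% of all genes. All 4 fell, Epc1 (-0.85, SE 0.20), Meaf6 (-0.71, SE 0.20), the neuronal subunit Actl6b (-0.67, SE 0.12) and Epc2 (-0.59, SE 0.21), and the list had a median of -0.35 beside 0.01 for all genes. In basal TTX, with 21.6% of all genes called, 1 of the 18 was called, Meaf6, which was lower (-0.72, SE 0.18).

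Downstream, 8 genes known as NPAS4 targets were tested in both experiments. At 7DIV edgeR called none of the 8 in any stimulated group, including KCl at 180 min, where Npas4 itself reached 969 to 1997 CPM. Over all genes edgeR called 1.98% in that group and 0.0% in the other 7DIV groups, so a count of 0 among 8 genes is near the share of all genes. At an unadjusted p under 0.05 it gave 2 with KCl at each time, 1 with Bic + 4AP at 15 min and 0 at 180 min, and DESeq2 called 1, Plk2 with KCl at 180 min. The median log2 fold change of the 8 in that group was 0.01 beside 0.00 for all genes. At 21DIV, 3 of 8 were called with KCl at 15 min, all higher (Bdnf, Nptx2 and Scg2, median 0.68), beside 6.21% of all genes. With KCl at 180 min 3 were called, all higher (Bdnf, Plk2 and Scg2, median 0.49), beside 4.88%. With Bic + 4AP at 180 min 4 were called beside 14.2% of all genes, Bdnf, Plk2 and Scg2 higher and Homer1 lower (median 0.81). Bic + 4AP at 15 min, which raised Npas4, called 0 of the 8, beside 0.0511% of all genes, with edgeR, and 0 with DESeq2 or at an unadjusted p under 0.05. Medians over all genes in these 4 comparisons lay between -0.02 and 0.00.

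Bdnf, which encodes brain-derived neurotrophic factor, was called in 8 of the 17 stimulated groups. It lay between 193 and 291 CPM in 21DIV basal samples of the maturation experiment, 325 and 578 CPM with KCl at 15 min and 497 and 585 CPM with Bic + 4AP at 180 min. At 7DIV it stayed between 150 and 276 CPM over all 5 groups. In the stimuli experiment Bdnf lay between 413 and 798 CPM in basal samples and 1310 and 1450 CPM with Bic at 180 min (log2 fold change 1.15, SE 0.18, adjusted p = 5.29e-05). Nptx2, a secreted pentraxin of excitatory synapses, rose with KCl at 15 min from 102 ± 38.8 CPM (SD, n = 3) in basal samples to 675 and 684 CPM (2.74, SE 0.21, adjusted p = 3.51e-12) and with Bic at 15 min to 477 and 581 CPM (2.39, SE 0.21). At 15 min the Nptx2 change was larger in value than that of Npas4 itself, 1.57 and 1.84.

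Scg2, which encodes the neuropeptide precursor secretogranin II, rose in 3 of the 4 stimulated groups at 21DIV, most with Bic + 4AP at 180 min (log2 fold change 1.82, SE 0.18, adjusted p = 4.95e-08), and the difference from 7DIV was itself called (1.78, SE 0.24, adjusted p = 5.21e-05). It was not called with KCl or with Bic in the stimuli experiment. At 180 min of TTXw Bdnf rose (1.22, SE 0.23) while Plk2 (-0.64, SE 0.20), Scg2 (-0.60, SE 0.17) and Syt10 (-1.86, SE 0.58) fell. Homer1 has a short activity-induced form with its own 3′ end, which was not separated here, and its change of -0.90 (SE 0.21) with Bic + 4AP at 180 min applies to the transcript counted. Cck rose with stage at rest (4.19, SE 0.13) and with Bic at 15 min (0.59, SE 0.12), and Mdm2 was not called in any of these groups.

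In basal TTX 5 of the 8 targets were lower, as was Npas4, and none was higher. In this comparison 21.6% of all genes were called, and the median of the 8 was -1.05 beside 0.00 for all genes. Bdnf fell from between 413 and 798 CPM to between 23.5 and 32.6 CPM (log2 fold change -4.53, SE 0.19, adjusted p = 1.26e-20) and Scg2 from between 761 and 1070 CPM to between 64.4 and 80.5 CPM (-3.78, SE 0.14, adjusted p = 4.33e-23). Both changes were larger in value than that of Npas4, -2.83. Nptx2 (-2.68, SE 0.24), Plk2 (-1.12, SE 0.16) and Syt10 (-0.98, SE 0.35) were the other 3. DESeq2 called 4 of the 8 in this comparison and did not call Syt10. After 45 min of TTXw, when Npas4 was called, edgeR and DESeq2 called 0 of the 8 targets, beside 0.383% of all genes called by edgeR. None of the 8 had an unadjusted p under 0.05, and Bdnf measured 28.4 and 35.4 CPM. Between stages at rest, where Npas4 fell, Nptx2 rose (2.31, SE 0.17) and Bdnf did not pass the test (0.26, SE 0.17, adjusted p = 0.25).

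**Figure D5:**
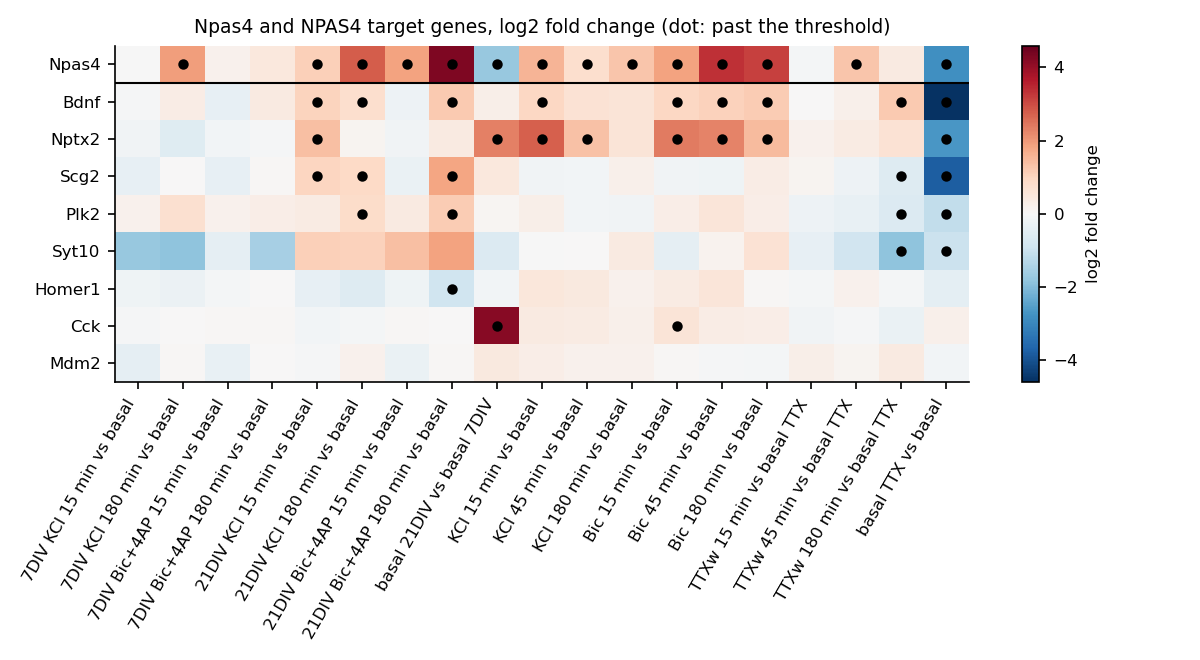
Log2 fold change of Npas4 (top row) and the 8 NPAS4 target genes in each comparison named on the x axis, as colour from blue (lower) to red (higher), with a dot where the threshold was passed. Npas4 has dots in 12 of 17 stimulated groups, and the targets have none at 7DIV, where no group called more than 1.98% of all genes. The right column shows basal TTX, where 5 targets and Npas4 are lower.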

How the data were processed

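Members and gene lists were chosen with earlier results of these data known. The authors made CEL-Seq2 libraries, aligned reads to mm10 with STAR and deposited raw counts per RefSeq transcript from ESAT. Whether molecular identifiers were collapsed is not given in the sources used here. Transcripts were matched to gene symbols (80.754% of 97700 and 80.872% of 96722, leaving 18.53% and 19.25% of counts unmatched), giving 28488 and 28212 genes, and a gene's most counted transcript stood for it. The test took genes exceeding 5 CPM (counts per library total, TMM scaled) in 2 or more samples: 11742 (maturation), 12023 (stimuli) and 10506 (stages at rest, fitted on those 6 samples). Each experiment had 1 edgeR 4.0.16 (R 4.3.3) quasi-likelihood fit over all groups, with Benjamini-Hochberg adjustment over all genes. Differences between responses needed an adjusted p under 0.05 and other calls 1.5-fold too. The SE is the log2 fold change divided by the square root of F. The experiments, normalized separately, were not tested against each other. Listed genes are named where called. A gene of the cofactor list is not reported here. Genes most like Npas4 (5) and each partner (3) were named by the lower of 2 correlations. Alternatives were DESeq2 1.42.0, its size factors, no filter, thinned counts, summed transcripts, a replicate block, compared groups only and leaving out each replicate. The fits were tested on simulated data. Same-numbered replicates did not deviate together (median r -0.01 over 48 pairs and 0.01 over 96) and were not paired. Promoters came from RefSeq on GRCm38.p6.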

Additional observations from a re-analysis of the deposited data

Results flagged for a closer look

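Among the 3 genes and the lists around them, 7 responses differed between 21DIV and 7DIV by the edgeR interaction test over all genes, out of 196 tests (49 genes in 4 comparisons). By comparison these were 2 of 49 for KCl at 15 min, 1 for KCl at 180 min and 4 for Bic + 4AP at 180 min, beside 2.01%, 0.775% and 4.94% of all genes. The difference for Npas4 with Bic + 4AP at 180 min was 3.82 on the log2 scale (adjusted p = 5.4e-06), and its samples did not overlap between stages. The NPAS4 targets Nptx2 and Scg2 responded more at 21DIV to KCl at 15 min, by 1.56 (adjusted p = 0.0476) and 1.34 (adjusted p = 0.00316), and Scg2 also to Bic + 4AP at 180 min, by 1.78 (adjusted p = 5.21e-05). The response of Srf to KCl at 180 min differed by -1.61 (adjusted p = 0.0307). Crtc1 and Yeats4 differed by -1.47 (adjusted p = 0.0381) and -0.80 (adjusted p = 0.0376) with Bic + 4AP at 180 min.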

How the results depend on the processing

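Of the recomputed values of the 3 genes, 1338 kept their direction and their side of the threshold, 52 lost a call, 6 gained one, and 53 changed sign without being called in either analysis. The Npas4 changes in basal TTX (-2.99 to -2.80), between stages at rest (-1.83 to -1.75) and with Bic + 4AP at 180 min at 21DIV (4.20 to 4.35), and the stage difference of the last (3.51 to 3.91), stayed called in the 7 alternatives that kept all samples. Npas4 also stayed called in these 7 with KCl at 180 min at 7DIV and at 21DIV. In the stimuli experiment the same held for KCl at 15 and 180 min and for Bic at 15, 45 and 180 min. Some other calls were lost in some alternatives, and the cause was not tested. For Npas4 at 21DIV with KCl at 15 min, the call was lost with the compared groups only (1.10, adjusted p = 0.072) and with summed transcripts (1.09, adjusted p = 0.0551), and leaving out replicates gave 0.79 to 1.54. With Bic + 4AP at 15 min it was lost in the same alternatives (1.86 in both, adjusted p = 0.0905 and 0.0704), with 1.57 to 2.31 on leaving out replicates. The 5 Npas4 calls in stimulated groups of the maturation experiment became 3 in these alternatives, and 3 to 5 on leaving out replicates, with 3 without 21DIV basal replicate 1 or 2. For KCl at 45 min the call was lost with summed transcripts (0.79) and thinned counts (0.71), with 0.57 to 0.99 on leaving out replicates. For TTXw at 45 min it was lost with the compared groups only (1.25), with 0.96 to 1.5 on leaving out replicates. Without a filter on low counts, the stage differences with KCl at 15 min (1.07), KCl at 180 min (0.84) and Bic + 4AP at 15 min (1.59) became called, and in no other alternative or fit without a replicate. Arnt in basal TTX gave -0.68 with thinned counts and -1.04 to -0.63 on leaving out replicates. Sign changes at values near 0 were as follows. With thinned counts Arnt gave 0.09 (21DIV Bic + 4AP 15 min), 0.10 (7DIV KCl 15 min), 0.07 (Bic against KCl 180 min) and 0.28 (stages at rest), Arnt2 0.02 (KCl 15 min between stages) and Npas4 0.24 (TTXw 15 min). Npas4 at 7DIV with KCl at 15 min gave 0.01 without a filter, and Arnt for Bic against KCl at 45 min 0.01 with DESeq2's size factors. On leaving out replicates Npas4 ran from -0.21 to 0.11 (7DIV KCl 15 min) and -0.24 to 0.06 (TTXw 15 min). Arnt ran from -0.26 to 0.20 (21DIV Bic + 4AP 15 min), -0.31 to 1.12 (21DIV KCl 15 min), -0.08 to 0.82 (7DIV Bic + 4AP 180 min), -0.47 to 0.38 (7DIV KCl 15 min), -0.12 to 0.21 (Bic 180 min), -0.71 to 0.18 (KCl 45 min), -0.66 to 0.67 (TTXw 45 min) and -0.33 to 0.51 (stages at rest). For differences between responses it ran from -0.39 to 0.51 (Bic against KCl 45 min), -0.09 to 1.33 (KCl 15 min between stages), -0.42 to 0.91 (TTXw against Bic 45 min), -0.07 to 0.33 and -0.43 to 0.90 (TTXw against KCl 180 and 45 min). Arnt2 ran from -0.03 to 0.11 (7DIV Bic + 4AP 15 min), -0.06 to 0.09 (TTXw 15 min), -0.05 to 0.14 (Bic against KCl 180 min), -0.08 to 0.08 (KCl 15 min between stages) and -0.04 to 0.14 (TTXw against KCl 45 min). Arnt2 was called in 0 to 1 stimulated groups of the stimuli experiment on leaving out replicates, the 1 without TTXw 180 min replicate 1.

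With the replicate number as a block, Npas4 with KCl at 45 min was 0.64 (adjusted p = 0.116) and Arnt in basal TTX -0.75 (adjusted p = 0.131), both no longer called, and the other Npas4 calls against unstimulated samples held. Under the block Npas4 at 7DIV with KCl at 15 min was 0.18, Arnt 0.46 there, 0.02 for TTXw at 15 min and 0.61 between stages at rest, and Arnt2 -0.02 for 7DIV Bic + 4AP at 15 min and 0.05 for KCl at 15 min between stages, all changed in sign and called in neither fit. The samples share only a number. Depth limits Arnt most, at 4 to 89 counts per sample.

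Counts of called genes behind the shares in the report also moved by over 1.5 times in places. Without a filter, 7DIV calls went from 0 to 27 (KCl 15 min), 28 and 21 (Bic + 4AP 15 and 180 min), and others from 6 to 38 (21DIV Bic + 4AP 15 min), 0 to 10 (TTXw 15 min), 46 to 104 (TTXw 45 min) and 92 to 150 (KCl 180 min). Without a filter, differences went from 236 to 490, 91 to 303 and 1 to 23 (stage, KCl 15 and 180 min and Bic + 4AP 15 min), 0 to 20 and 82 to 140 (Bic against KCl 15 and 45 min), 28 to 63 (TTXw against KCl 45 min), 50 to 90 and 17 to 53 (KCl steps), 17 to 45 (first Bic step) and 32 to 104 (first TTXw step). With summed transcripts, calls went from 729 to 478 and 573 to 360 (21DIV KCl 15 and 180 min), 869 to 575, 92 to 32 and 92 to 43 (KCl 15, 45 and 180 min), 896 to 581 and 92 to 55 (Bic 45 and 180 min), and 366 to 136 (second Bic step). With the replicate block they went from 411 to 199 (Bic 15 min), 580 to 375 (stage, Bic + 4AP 180 min), 1178 to 670, 218 to 55 and 241 to 45 (TTXw against Bic 180, 45 and 15 min) and 491 to 223 (TTXw against KCl 15 min). DESeq2 gave 398 in place of 236 and 216 in place of 91 (stage, KCl 15 and 180 min). With the compared groups only, calls went from 729 to 467 and 573 to 349 (21DIV KCl 15 and 180 min), 92 to 180 (KCl 180 min), 88 to 238 (Bic against KCl 180 min) and 50 to 156 and 17 to 105 (KCl steps), and with thinned counts from 869 to 508 (KCl 15 min), 896 to 554 (Bic 45 min) and 92 to 42 (KCl 45 min).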
